A study of Mus musculus with 2 samples.

Results

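The 7 genes described here are CXC chemokines of mouse spinal cord: Cxcl1, Cxcl2, Cxcl3, Cxcl10, Cxcl12, Cxcl14 and Cxcl16. They were taken by symbol from the 22480 gene rows of both count tables, and all 7 were found. The 2 single-cell libraries were 1 of cord 3 days post injury (3 dpi) and 1 of sham cord. Each library pooled cells of 10 C57BL/6 mice (5 male and 5 female, 8 weeks old) from a piece of cord 8 mm long, dissociated and captured in droplets with the 10X Chromium v.3 kit. In this assay a unique molecular identifier (UMI) marks 1 captured RNA molecule. The kind of injury and what the sham operation consisted of are not given in the sources used here. Each group is a single library without replicates, so differences were not tested, and effects of library and injury cannot be told apart.

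The 3 dpi library held 149291783 UMIs in 13594 barcodes, and the sham library 76889038 UMIs in 10138 barcodes. After filters and removal of called doublets, 12108 cells at 3 dpi (median 8398.5 UMIs) and 9306 sham cells (median 5253.5 UMIs) were kept. The libraries shared 39 barcode sequences, 29 of them among kept cells. Cells were clustered without the chemokines and their receptors, and 26 of 32 clusters were named as "like" a class from its markers. Microglia, oligodendrocyte and endothelial markers of cord tissue were found in both libraries. Neuron-like cells were only 11 at 3 dpi and 16 in sham, so neurons are hardly covered. Astrocyte markers, summed over 8 genes, were highest in cluster 22, where they stood beside ependymal ones (2640 CPM in 194 cells at 3 dpi and 1963 in 42 sham cells), and next in precursor-like cells (584 and 1453 CPM). No cluster was named astrocyte-like. Levels are counts per 1000000 UMIs of a class and library (CPM), and unnamed clusters are listed among the classes. Brackets give 95% intervals that cover counting error only and treat UMIs as independent.

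Chemokines are small secreted proteins that guide leukocytes along gradients. The ligands with a Glu-Leu-Arg motif, Cxcl1, Cxcl2 and Cxcl3, act on Cxcr2 and draw neutrophils from blood, and tissue cells make them within hours of damage. Cxcl10 is induced by interferon and by NF-kB and attracts T and NK cells through Cxcr3. Cxcl12 is made constitutively by stromal and vascular cells and binds the signalling receptor Cxcr4 and the scavenger Ackr3. Cxcl14 is a homeostatic ligand whose receptor is not settled, and Cxcl16 is a membrane-bound ligand of Cxcr6 that Adam10 can shed.

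Promoter sequence from RefSeq (build GRCm38.p6) was found for 6 of the 7 members, all but Cxcl16. It is shown for the 3 Cxcr2 ligands and Cxcl10, which were all higher at 3 dpi over the whole library, and for Cxcl12, which was lower. Cxcl14 was also higher, and its matches are given below without the sequence. Capitals mark matches to the kappaB motif, the binding site of NF-kB, on either strand, and in Cxcl10 also the interferon-response motif GAAANNGAAA. Each line runs 5′ to 3′ along the gene's strand.
Cxcl1, chr5:90891115-90891214, plus strand: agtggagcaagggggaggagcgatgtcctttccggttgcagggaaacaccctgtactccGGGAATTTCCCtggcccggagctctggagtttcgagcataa
Cxcl2, chr5:90903769-90903868, plus strand: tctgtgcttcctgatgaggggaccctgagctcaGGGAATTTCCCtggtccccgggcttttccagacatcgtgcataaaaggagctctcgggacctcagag
Cxcl3, chr5:90785971-90786070, plus strand: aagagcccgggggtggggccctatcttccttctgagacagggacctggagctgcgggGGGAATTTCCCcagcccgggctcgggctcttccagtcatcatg
Cxcl10, chr5:92348980-92349109, minus strand: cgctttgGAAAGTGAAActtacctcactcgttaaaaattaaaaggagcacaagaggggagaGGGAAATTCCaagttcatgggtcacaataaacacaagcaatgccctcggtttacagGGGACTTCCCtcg
Cxcl12, chr6:117168405-117168504, plus strand: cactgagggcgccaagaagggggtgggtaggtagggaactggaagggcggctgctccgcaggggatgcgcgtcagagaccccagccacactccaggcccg

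The run in capitals is identical in Cxcl1, Cxcl2 and Cxcl3 and holds 2 overlapping kappaB matches, 1 on each strand. It begins 71, 97 and 73 bases before the start in these genes. In Cxcl10 the kappaB matches begin 159 and 103 bases and the interferon-response match 213 bases before the start. In the 250 bases before the start, Cxcl12 had no match to either motif. Cxcl14, higher at 3 dpi over the whole library (57.0 CPM, and 2.73 in sham), had no kappaB match there. It had 1 interferon-response match, 172 bases before the start and outside any stretch shown. Over 32851 RefSeq promoters, 3.9% held a kappaB match and 2.98% an interferon-response match in the same window. A match describes letters and is not evidence of binding.

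The leading source differed among the members, and for Cxcl2, Cxcl14 and Cxcl16 also between the libraries. Among classes of at least 50 cells, the highest at 3 dpi was neutrophil-like for Cxcl2 and Cxcl3, fibroblast-like for Cxcl1, microglia-like for Cxcl10, endothelial-like for Cxcl12, border-associated macrophage-like for Cxcl14 and monocyte/macrophage-like for Cxcl16. For Cxcl16 the first 2 classes were close, at 267 CPM and, in border-associated macrophage-like cells, 262 CPM. Among classes of at least 50 cells in sham the highest was microglia-like for Cxcl2, Cxcl10 and Cxcl16, endothelial-like for Cxcl12, and precursor-like for Cxcl14. In sham, Cxcl1 stayed under 20 CPM in every class of at least 50 cells, and Cxcl3 was at 0. Among 13 classes at 3 dpi, 2 of the 7 members were at least 2-fold above their second class, against 18.6% of the 10498 genes measured at 20 CPM or more. Among 8 sham classes, 4 of the 5 measured members were, against 15.4% of 10429 genes. The sham count rests on the limit of 50 cells, which leaves out the 49 sham cells of cluster 14. With classes of 20 cells or more, a comparison chosen after the data were seen, the members were Cxcl1 and Cxcl2 alone, against 18.7% of 11344 genes. Cluster 14 then led in sham for Cxcl1 (317 CPM), Cxcl2 (2662) and Cxcl16 (125).

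At 3 dpi the leading class also depended on how finely cells were clustered. At a resolution of 2.0 an unnamed cluster that took 334 of the 439 cells of cluster 14 led for Cxcl3 (640 CPM, against 514 in neutrophil-like cells), Cxcl1 (425, against 421 in fibroblast-like cells) and Cxcl14 (193, against 119 in border-associated macrophage-like cells). Another unnamed cluster led for Cxcl16 at this resolution (406 CPM, against 267 in border-associated macrophage-like cells), as did unnamed clusters with doublets kept (386) and with a stricter cell filter (413). At resolution 0.5 monocyte/macrophage-like cells led for Cxcl14 (111 CPM). The leading classes of Cxcl2, Cxcl10 and Cxcl12 were the same in all of these settings.

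**Figure D1:**
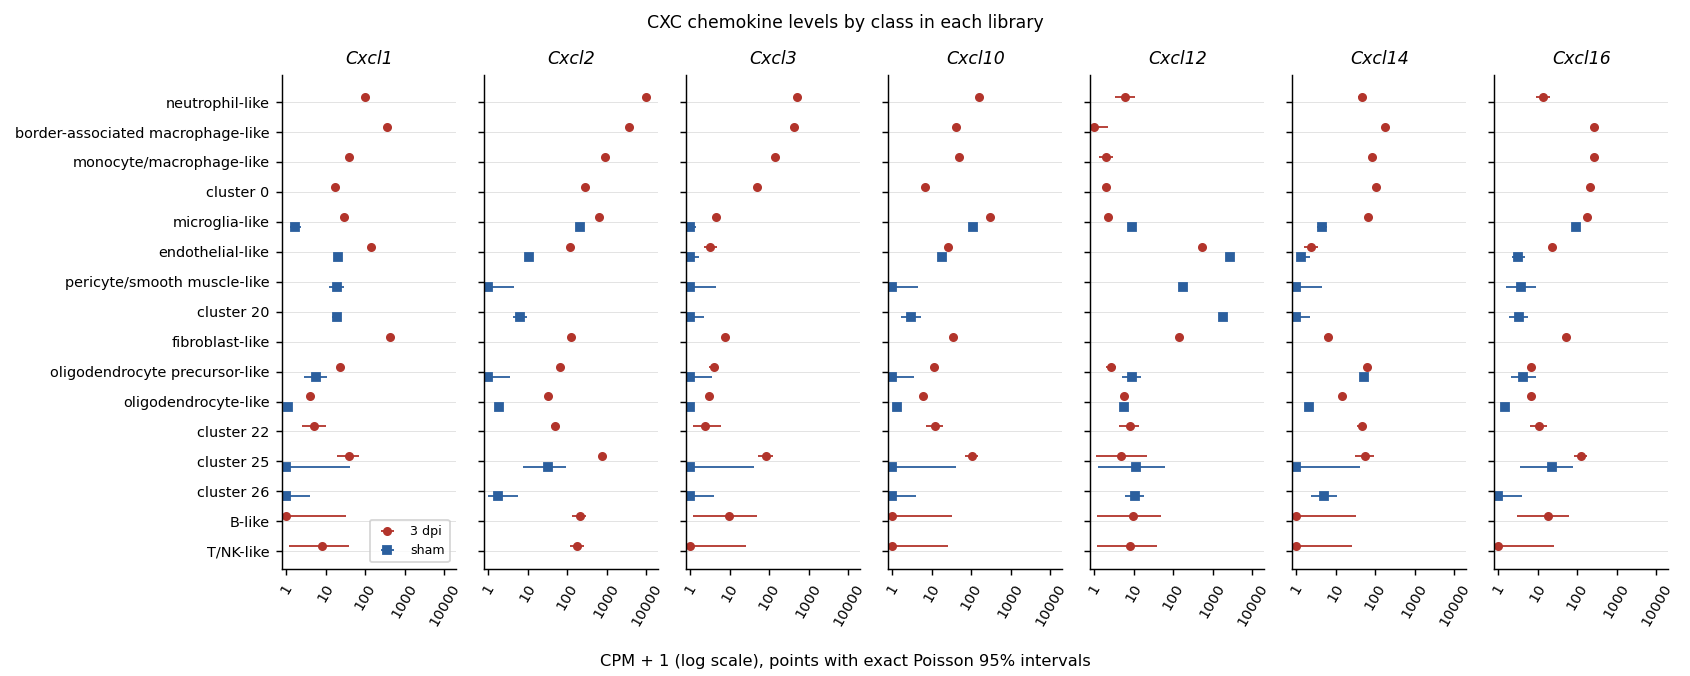
Level of each member by class, as CPM + 1 on a log axis with exact Poisson 95% intervals, for classes of at least 50 cells in that library (3 dpi red circles, sham blue squares). Cxcl2 reaches 9714 CPM in neutrophil-like cells at 3 dpi, and Cxcl12 is lower at 3 dpi than in sham in endothelial-like cells.

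Cxcl2 was the most abundant of the 7 at 3 dpi, with 67488 UMIs at 3 dpi and 2604 in sham over all kept cells. Neutrophil-like cells held 9714 CPM [9568 to 9861], and 85.4% [83.5 to 87.2] of the 1480 cells had a UMI at a median depth of only 1038 UMIs. They gave 25.1% of all Cxcl2 UMIs with 1.43% of the library's UMIs. Border-associated macrophage-like cells (cluster 14, 439 cells) held 3659 CPM [3591 to 3729], or 16.1% of Cxcl2 UMIs. Monocyte/macrophage-like cells held 902 CPM [879 to 926], microglia-like cells 627 [619 to 635] and cluster 0 283 [277 to 290]. Cluster 0 is an unnamed group of 2255 cells, all from 3 dpi, led by Gpnmb, Pf4, Fabp4 and Arg1. Microglia-like cells gave the largest part of Cxcl2 UMIs, 35.1%, and held 30.9% of the library's UMIs.

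In sham, microglia-like cells gave 71.3% of Cxcl2 UMIs at 206 CPM [197 to 216]. The 49 sham cells of cluster 14 gave another 21.3% at 2662 CPM [2445 to 2893], against 3659 CPM in that cluster at 3 dpi (1.37-fold [1.26 to 1.5] higher at 3 dpi). Of these, the 104 cells of 3 dpi that shared a cluster with the sham cells at resolution 2.0 held 2477 CPM, 0.931-fold [0.849 to 1.02] the sham level. The highest level in sham thus stood in cluster 14, which held too few sham cells for the ranking of classes. The 15 sham cells named neutrophil-like held 68 Cxcl2 UMIs, or 1667 CPM [1295 to 2114].

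Oligodendrocyte-like cells, which should lack Cxcl2, had a UMI in 15.8% [14.1 to 17.5] of cells at 3 dpi and 0.92% [0.66 to 1.25] in sham, at median depths of 8386.5 and 7548 UMIs. After every cell was thinned to 1000 UMIs, these shares were 1.68% and 0%, against 83.7% in neutrophil-like cells at 3 dpi, where 669 of 1480 cells were too shallow to thin. Thinned shares in cluster 14 were 68.6% at 3 dpi and 36.7% in sham, and in microglia-like cells 31.9% at 3 dpi and 9.19% in sham. The levels of 205 CPM in B-like and 180 CPM in T/NK-like cells rested on 24 and 26 UMIs in 3.45% and 9.09% of cells. In both, Cxcl2 stood beside neutrophil RNA at 0.261 and 0.295 UMIs per UMI of S100a8 and S100a9, against 0.137 in neutrophil-like, 0.329 in oligodendrocyte-like, 8.20 in microglia-like and 18.2 in cluster 14 cells. Precursor-like cells stood at 0.555 and endothelial-like cells at 0.690 at 3 dpi.

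Within the myeloid classes Cxcl2 varied several-fold between clusters that were drawn without chemokines. Cluster 10, the monocyte/macrophage-like cells led by Chil3 and Plac8, held 1426 CPM [1385 to 1468]. Cluster 16, of the same class but led by the MHC class II genes H2-Eb1 and H2-Aa, held 365 [344 to 387]. The microglia-like clusters were closer, with 691 CPM [678 to 703] in cluster 7, led by Cxcl10 and cell-cycle genes such as Mki67, and 576 [566 to 587] in cluster 3, led by Lpl and Cd5l.

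**Figure D2:**
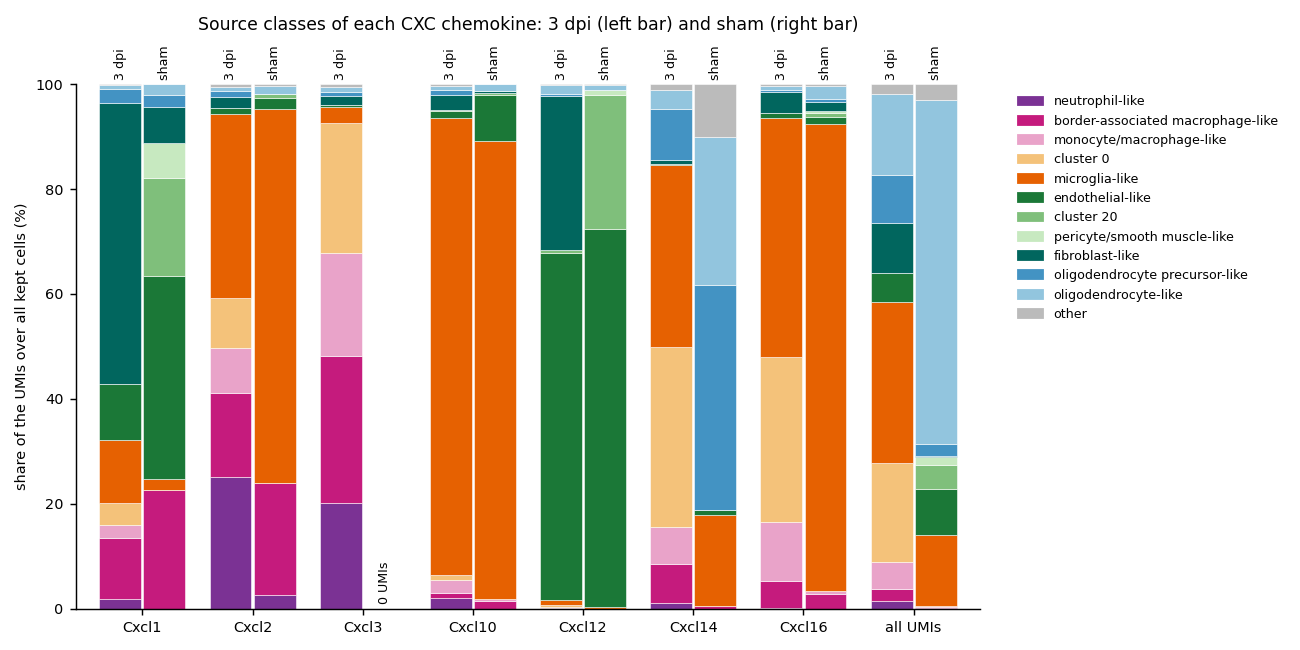
Share of each member's UMIs, in percent of that gene's UMIs over all kept cells, by class (colours), with 3 dpi left and sham right, and the share of all UMIs at the far right. Fibroblast-like cells give 53.5% of Cxcl1 and microglia-like cells 87.1% of Cxcl10 at 3 dpi, and Cxcl3 has 0 UMIs in sham.

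Cxcl3 was found in kept cells of the 3 dpi library only. It had 4441 UMIs in kept cells at 3 dpi, or 36.3 CPM, and 0 in the 66031213 UMIs of kept sham cells. This was 799-fold above a floor of 3 counts over the library, and the exact lower 95% limit was 650-fold. Such a fold mixes composition with level per cell. Sham held only 15 neutrophil-like and 11 monocyte/macrophage-like cells and 0 cells of cluster 0. In sham microglia-like cells, 0 of 2085 cells had a UMI, which allows a share of cells with a UMI of up to 0.144% (3 counts). At 3 dpi, neutrophil-like cells held 514 CPM [481 to 549] and cluster 14 held 418 [395 to 442], in 23.9% and 46.5% of cells. Cluster 10 followed with 261 [244 to 280], cluster 25, unnamed and of low depth, with 80.7 [50 to 123], and cluster 0 with 48.2 [45.4 to 51.1]. Microglia-like cells, rich in Cxcl2, were at 3.6 CPM [3.02 to 4.26], near the 2.06 CPM [1.47 to 2.82] of oligodendrocyte-like cells. There were 174 Cxcl2 UMIs per Cxcl3 UMI in microglia-like cells, against 18.9 in neutrophil-like, 8.75 in cluster 14 and 5.89 in cluster 0 cells.

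The identity of cluster 14 bears on these values. It was named from Mrc1, Lyve1 and Cbr2, but at a finer cluster resolution of 2.0 its 3 dpi cells divided, a comparison chosen after the data were seen. There, 334 fell in an unnamed cluster led by Cxcl3, Ccl24, Arg1 and Pf4, with Lyve1 at 9.86 CPM, Arg1 at 6285 and Cxcl3 at 661. The 104 that kept the name had Lyve1 at 320 CPM, Arg1 at 1874 and Cxcl3 at 30.8, and the 49 sham cells, all under the same name, had Lyve1 at 264, Arg1 at 0 and Cxcl3 at 0. Cxcl2 was 4397 CPM in the unnamed cells, 2477 in the 104 named 3 dpi cells and 2662 in the sham cells. At resolution 0.5, 427 of the 439 cells were joined to the monocyte/macrophage-like class. Cluster 14 of the 3 dpi library is therefore called by its number below.

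Cxcl1 came mainly from fibroblast-like cells at 3 dpi. These collagen-forming cells of the cord's coverings and scar held 421 CPM [410 to 433] and 53.5% of its 9104 UMIs, with 9.45% of all UMIs. Of their clusters, cluster 23 (Dcn, Lum, Aldh1a2) held 640 [611 to 670] and cluster 17 (Col3a1, Col8a1) 349 [337 to 362]. Cluster 14 held 353 [332 to 375] and endothelial-like cells 144 [135 to 153], and neutrophil-like cells, first for Cxcl2 and Cxcl3, held 100 [86.0 to 116]. Cxcl1 was at 3.12 CPM [2.38 to 4.03] in oligodendrocyte-like cells. A UMI was found in 57.6% [53.6 to 61.5] of fibroblast-like cells at a median depth of 16013 UMIs, 32.3% [28 to 36.9] of cluster 14 at 5528 UMIs and 3.21% [2.45 to 4.13] of oligodendrocyte-like cells.

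In sham Cxcl1 had 292 UMIs in all, of which endothelial-like cells gave 38.7% at 19.8 CPM [16.3 to 23.8]. Pericyte/smooth muscle-like cells (18.1 [10.9 to 28.2]) and cluster 20 (18.0 [13.5 to 23.4]), a sham cluster with both endothelial and pericyte markers, did not differ from these beyond counting error. The few sham cells of cluster 14 (317 CPM [245 to 403], 66 UMIs in 12.2% of 49 cells) and of the fibroblast-like class (214 [131 to 331], 20 UMIs in 15.8% of 19 cells) were higher. In cluster 14 the 3 dpi level was 1.11-fold [0.869 to 1.45] the sham level. At resolution 2.0 the 104 cells of 3 dpi that shared a cluster with the sham cells held 178 CPM, 1.78-fold [1.33 to 2.37] lower than the 317 CPM in sham, while the 334 unnamed cells held 462 CPM.

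Cxcl10 came mainly from microglia-like cells in both libraries. They gave 87.1% of its 12868 UMIs at 3 dpi and 87.3% of its 1162 UMIs in sham, at 297 CPM [292 to 303] and 113 CPM [106 to 120]. At 3 dpi cluster 7, the microglia-like cells with cell-cycle genes, held 473 CPM [463 to 483] in 61.7% of cells, and cluster 3 held 156 [151 to 162] in 29.5%. Their median depths were 15946.5 and 12630.5 UMIs, and the thinned shares were 27.2% in cluster 7 and 9.27% in cluster 3, against 0.28% in oligodendrocyte-like cells. Neutrophil-like cells held 158 CPM [140 to 177], in 5.34% [4.25 to 6.61] of cells at a median depth of 1038 UMIs. Their thinned share was 5.55%. Cluster 0 was at 5.95 CPM [4.99 to 7.04], no higher than the 5.19 [4.21 to 6.32] of oligodendrocyte-like cells. The few sham cells of cluster 14 held 86.3 CPM [51.2 to 136] on 18 UMIs.

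Cxcl12 was the vascular member and the only 1 of the 7 that was lower at 3 dpi over the whole library, at 45.1 CPM at 3 dpi and 324 CPM in sham. Endothelial-like cells held 541 CPM [523 to 559] at 3 dpi and 2693 CPM [2651 to 2736] in sham, 4.98-fold [4.8 to 5.17] lower at 3 dpi. The share of endothelial-like cells with a UMI was 72.7% [67.9 to 77.1] of 381 cells at 3 dpi and 92% [90.5 to 93.4] of 1401 cells in sham. At equal depth of 1000 UMIs the shares were 33.2% at 3 dpi and 79.8% in sham, against 0.62% and 0.28% in oligodendrocyte-like cells. The median endothelial-like cell was deeper at 3 dpi (13229 UMIs) than in sham (3218 UMIs).

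Different clusters held the endothelial-like class in the 2 libraries. Cluster 19 (355 of 381 cells at 3 dpi, led by Tmem252, Ctla2a, Col4a1, Vwf and Ackr1) held 513 CPM [496 to 530]. Cluster 5 (1398 of 1401 cells in sham, led by Slco1a4, Itm2a, Ly6c1 and Cldn5) held 2696 [2653 to 2739]. The 26 cells of 3 dpi that fell in cluster 5 held 1990 CPM [1752 to 2250], 1.35-fold [1.20 to 1.54] lower than the sham cells of the same cluster. The tight-junction gene Cldn5 was at 2828 CPM at 3 dpi and 8936 in sham over the class, and Pecam1, carried by most endothelium, at 704 and 684. Whether the vessels sampled or the level per cell differed was not tested.

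Other Cxcl12 sources were also vascular or stromal. Fibroblast-like cells held 141 CPM [134 to 148] at 3 dpi, alike in cluster 23 (143 [130 to 158]) and cluster 17 (140 [132 to 148]), and gave 29.5% of the gene's UMIs. The 19 sham fibroblast-like cells held 171 [98 to 278]. In sham, cluster 20 held 1781 CPM [1734 to 1829] and pericyte/smooth muscle-like cells 182 [157 to 209]. Cluster 20 held both Cldn5 (5841 CPM) and the pericyte marker Rgs5 (4255 CPM). Its median depth was 8117 UMIs, against 3218 in endothelial-like and 1849 in pericyte/smooth muscle-like cells of sham. Whether its cells were doublets left after removal was not tested. Cluster 20 and the pericyte/smooth muscle-like class had 2 and 3 cells at 3 dpi, too few to compare. Every leukocyte class and cluster 0 stood under 10 CPM at 3 dpi, and cluster 14 had 0 of 439 cells with a UMI, which allows a share of cells with a UMI of up to 0.683% (3 counts).

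Cxcl14 was spread most widely at 3 dpi, with 8 of 13 classes within 10-fold of the highest, and its highest class was less than 2-fold above the second. Cluster 14 held 172 CPM [158 to 188], cluster 16 held 122 [110 to 135], cluster 0 held 105 [100 to 109] and microglia-like cells 64.0 [61.4 to 66.6]. Precursor-like cells, the glial progenitors that form oligodendrocytes, held 59.7 CPM [55.3 to 64.4] at 3 dpi and 52.0 [41.0 to 65.0] in sham, its highest class there, with 77 of the 180 sham UMIs. Oligodendrocyte-like cells gave another 51 of these at 1.18 CPM. The next sham class of at least 50 cells, cluster 26, was at 4.13 CPM. The ependymal and astrocyte cluster 22 also held Cxcl14, at 44.8 CPM [34.6 to 57.1] at 3 dpi and 29.7 [15.8 to 50.8] in 42 sham cells. Neutrophil-like cells at 44.7 CPM [35.3 to 55.8] had a UMI in 2.64% of cells, against 9.25% of the deeper oligodendrocyte-like cells. Microglia-like cells held 31 Cxcl14 UMIs in sham, or 3.45 CPM [2.34 to 4.89].

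Cxcl16 was shared among macrophage, monocyte and microglial clusters at 3 dpi. Cluster 16, the MHC class II-high cells, led with 364 CPM [343 to 386], followed by cluster 14 (262 [244 to 281]), cluster 0 (205 [199 to 211]), cluster 3 (188 [183 to 194]), cluster 10 (172 [158 to 187]) and cluster 7 (170 [164 to 176]). The last 2 did not differ beyond counting error. Neutrophil-like cells, first for Cxcl2, were at 12.6 CPM [7.90 to 19.1]. A UMI was found in 79.7% [78.1 to 81.2] of microglia-like cells and 1.49% [0.93 to 2.24] of neutrophil-like cells at 3 dpi, and in 5.59% [4.58 to 6.75] of oligodendrocyte-like cells. Fibroblast-like cells held 52.1 CPM [48.0 to 56.4] at 3 dpi. In sham 89.0% of its 921 UMIs came from microglia-like cells, at 91.2 CPM [85.1 to 97.7]. Cluster 14 held 262 CPM at 3 dpi and, in its 49 sham cells, 125 CPM [81.5 to 183] on 26 UMIs (2.10-fold [1.42 to 3.24] higher at 3 dpi).

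**Figure D3:**
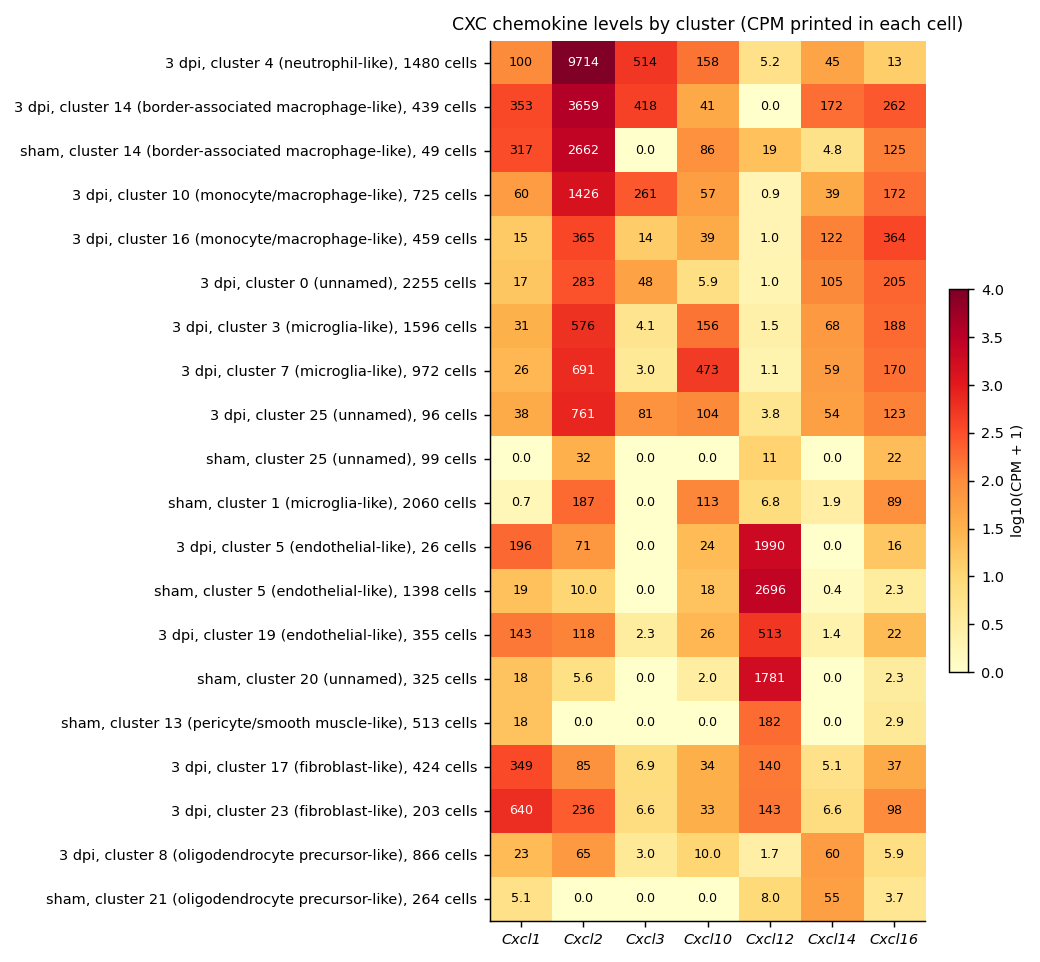
Level of each member by cluster and library, as CPM printed in each cell and log10(CPM + 1) in colour, for the myeloid, vascular, stromal and precursor-like clusters of at least 50 cells, with the smaller sets of clusters 5 and 14 added; other clusters are not drawn. Cxcl10 stands at 473 CPM in cluster 7 and 156 in cluster 3, and Cxcl12 at 1990 in the 3 dpi cells and 2696 in the sham cells of cluster 5.

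In 4 named classes both libraries held 50 cells or more, and there a log2 ratio was taken between 3 dpi and sham after adding 10 CPM to each level. Genes at 20 CPM or more in either library count as measured, and as higher or lower where this ratio reached 2-fold. In microglia-like cells 4 of 5 measured members were higher at 3 dpi and 0 lower, against 11.7% of 6214 genes higher and 16.6% lower. The ratio was 2.46 for Cxcl14, 1.86 for Cxcl1, 1.56 for Cxcl2 and 1.32 for Cxcl10, and 0.91 for Cxcl16, which stayed within 2-fold. The levels behind them were 64.0 and 3.45 CPM for Cxcl14, 28.8 and 0.667 for Cxcl1, 627 and 206 for Cxcl2, 297 and 113 for Cxcl10, and 180 and 91.2 for Cxcl16, at 3 dpi and in sham. Clusters 3 and 7 made up the class at 3 dpi and cluster 1 nearly all of it in sham. Median-of-ratios scaling gave 5 members higher, with 929 genes higher and 826 lower, against 729 and 1031 with CPM.

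The microglial differences stood beside a difference in early-response genes the other way. All 16 measured genes of a dissociation and immediate early list were lower at 3 dpi in microglia-like cells, with a median log2 ratio of -2.90 against -0.15 over all measured genes. The summed level of the 17 listed genes was 4809 CPM at 3 dpi and 44649 CPM in sham. Jun, an AP-1 subunit, was at 410 CPM at 3 dpi and 7763 in sham, and Egr1 at 189 and 3271. What this had to do with the chemokine levels was not tested.

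In endothelial-like cells 3 of 5 measured members were higher at 3 dpi and 1 was lower, against 8.3% and 13.6% of 7027 genes. Cxcl2 (log2 ratio 2.68), Cxcl1 (2.37) and Cxcl16 (1.37) were higher, Cxcl12 was lower (-2.30), and Cxcl10 (0.36) stayed within 2-fold. The levels were 118 and 9.96 CPM for Cxcl2, 144 and 19.8 for Cxcl1, 21.8 and 2.27 for Cxcl16, and 25.5 and 17.7 for Cxcl10, at 3 dpi and in sham. At 3 dpi the class held 0.690 Cxcl2 UMIs per UMI of S100a8 and S100a9. How far free RNA made up its Cxcl2 level was not measured. The sham Cxcl10 UMIs of this class, 101 in all, came from 13 of its 1401 cells. In cluster 5 alone, Cxcl1 was at 196 CPM in 26 cells of 3 dpi and 19.3 CPM in its sham cells, a log2 ratio of 2.81 (25 UMIs at 3 dpi). With median-of-ratios scaling 845 genes were higher and 611 lower in this class, against 583 and 958 with CPM.

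In precursor-like cells 2 of 3 measured members were higher at 3 dpi and 0 lower, against 7.21% and 13.5% of 8184 genes. Cxcl2 was at 64.6 CPM [60 to 69.5] at 3 dpi and 0 UMIs in sham, and Cxcl1 at 22.8 [20.1 to 25.8] at 3 dpi and 4.73 [1.90 to 9.74] in sham, while Cxcl14 was within 2-fold (0.17). At 3 dpi the class held 0.555 Cxcl2 UMIs per UMI of S100a8 and S100a9, against 0.329 in oligodendrocyte-like cells. The part of free RNA in this Cxcl2 level was not measured. Here cluster 8 made up the class at 3 dpi and cluster 21 in sham. With median-of-ratios scaling 838 genes were higher and 639 lower, against 590 and 1105 with CPM. In oligodendrocyte-like cells the 1 measured member, Cxcl2, was higher at 31 CPM [28.6 to 33.6] at 3 dpi and 0.923 [0.659 to 1.26] in sham, beside 5.62% of 6314 genes higher and 4.24% lower. With 5% of the UMIs subtracted as free RNA the ratio was 0.44, and it was not called. Over all kept cells, which mix composition with level per cell, 6 of 7 members were higher and 1 lower, against 10.7% and 18.5% of 7508 genes. The unnamed cluster 25, of low depth, also had 50 cells or more in both libraries (96 and 99) and was not counted among the classes compared. It held Cxcl2 at 761 CPM [659 to 875] at 3 dpi and 32.3 [6.65 to 94.3] in sham, where only 3 UMIs were found. In sums over all kept cells, fewer cells of a type and less RNA per cell cannot be told apart.

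**Figure D4:**
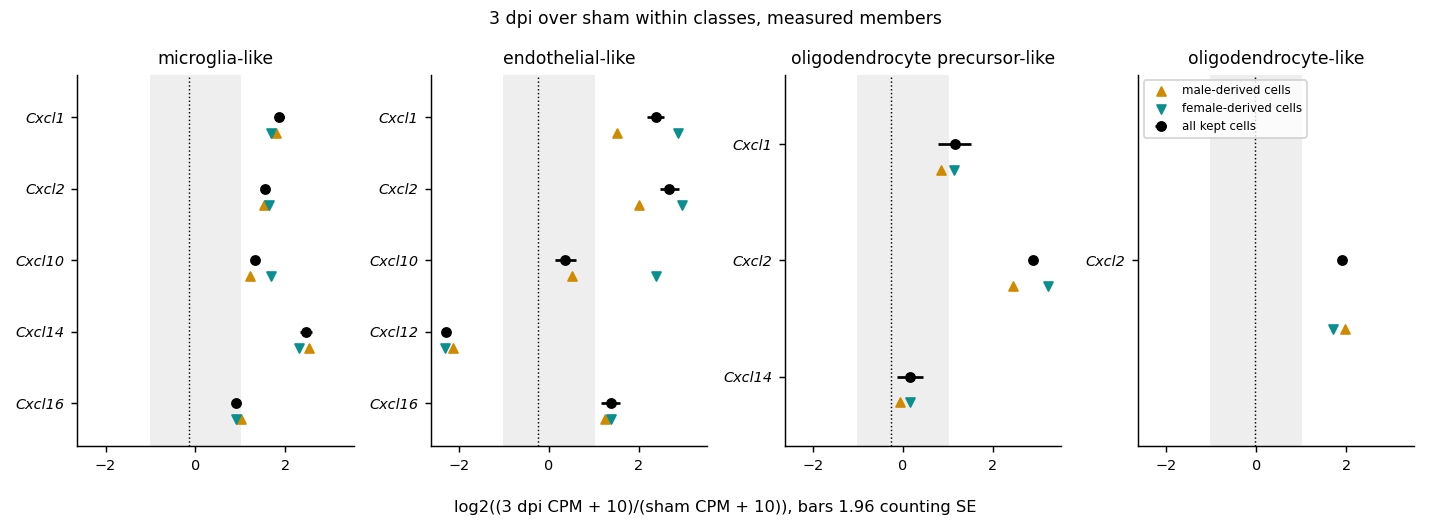
Log2 ratio (3 dpi over sham, each level plus 10 CPM) for the measured members in each class, from all kept cells (black, bars show counting error) and over cells with sex-linked UMIs of 1 sex (triangles). Grey marks 2-fold either way and the dotted line the median of all measured genes, and Cxcl12 in endothelial-like cells is the only point left of the grey band.

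Part of the cells could be assigned to male or female mice by sex-linked UMIs, which gives 2 sets of animals within each library. At 3 dpi 3947 cells were called male, 3796 female, 390 both and 3975 neither. In sham these numbers were 2676, 3508, 784 and 2338. Cells called both or neither are in neither set. In microglia-like cells the ratios were 1.53 in male-derived and 1.64 in female-derived cells for Cxcl2, 1.22 and 1.69 for Cxcl10, 2.53 and 2.31 for Cxcl14. In endothelial-like cells they were -2.13 and -2.31 for Cxcl12 and 1.52 and 2.87 for Cxcl1, while Cxcl10 was 0.52 and 2.37, past 2-fold in female-derived cells. Sham Cxcl10 in this class was 4.77 CPM in male-derived and 3.21 in female-derived cells, against 17.7 over all its cells. At 3 dpi each sex had the same leading class as all cells for Cxcl2, Cxcl3, Cxcl10, Cxcl12 and Cxcl14. For Cxcl16 cluster 14 was first in male-derived (281 CPM, against 272 in monocyte/macrophage-like cells) and in female-derived cells (257, against 249). For Cxcl1 it was fibroblast-like in male-derived cells (395 CPM) and cluster 14 in female-derived cells (455 CPM, against 431 in fibroblast-like cells).

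Members that shared a source were also found in the same cells for some pairs. Each cell was thinned to 1000 UMIs, and 36 pairs of members within clusters were compared. Among neutrophil-like cells, 96.9% [93.4 to 98.9] of those with a Cxcl3 UMI had Cxcl2, against 79.5% [76.1 to 82.7] of those without. The same pair gave 69.5% [59.8 to 78.1] against 37.2% [33.3 to 41.1] in cluster 10, 86.1% [78.4 to 91.8] against 62.3% [56.8 to 67.6] in cluster 14 and 48.9% [38.3 to 59.6] against 15.2% [13.7 to 16.8] in cluster 0. Cxcl1 was found in 25.9% [21.1 to 31.3] of cluster 14 cells with Cxcl2 and in 2.17% [0.451 to 6.22] of those without. At resolution 2.0 the 334 unnamed cells of cluster 14 held more Cxcl1, Cxcl2 and Cxcl3 (462, 4397 and 661 CPM). The 104 named cells held 178, 2477 and 30.8 CPM. Whether the cluster 14 pairs hold within each part was not tested. In microglia-like cells with Cxcl10, Cxcl2 was more frequent in cluster 7 (49.2% [43.1 to 55.4] against 30.9% [27.5 to 34.5]) and in cluster 3 (43.2% [35.1 to 51.6] against 28% [25.7 to 30.4]). In sham cluster 1 the intervals overlapped (12.8% [7.36 to 20.3] against 8.72% [7.5 to 10.1]).

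Pairs with Cxcl16 or Cxcl14 mostly had overlapping intervals. In cluster 0, Cxcl2 was found in 17.3% [13.8 to 21.2] of cells with Cxcl16 and 16.4% [14.8 to 18.2] of those without. The 1 pair whose intervals did not overlap was in cluster 14. There Cxcl14 was found in 1.23% [0.0313 to 6.69] of cells with Cxcl16 and 18.4% [14.6 to 22.8] of those without. At resolution 2.0 the 334 unnamed cells of this cluster held 199 CPM of Cxcl14 and 268 of Cxcl16. The 104 named cells held 126 and 254 CPM, so both genes were higher in the same part. The cause of this pair's difference was not tested.

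**Figure D5:**
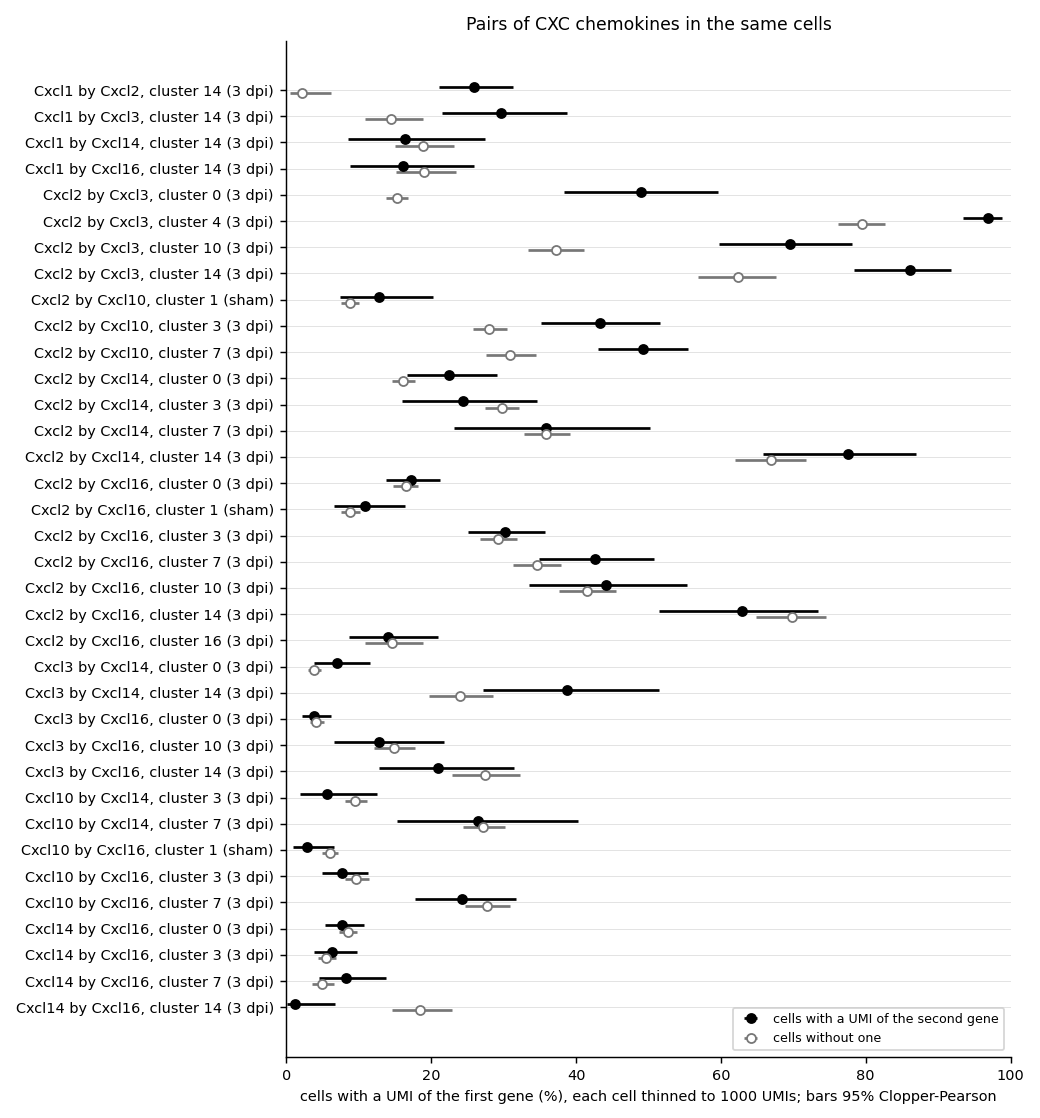
Share of cells with a UMI of the first gene among cells with (black) and without (open) a UMI of the second, in percent, within 1 cluster and library, each cell thinned to 1000 UMIs, with Clopper-Pearson 95% intervals. The Cxcl2 and Cxcl3 pairs lie apart in clusters 0, 4, 10 and 14, and most pairs with Cxcl16 overlap.

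The members also differed in how evenly single cells held them at equal depth. Cxcl16 was near an even spread: 18.5% of cluster 0 cells had a UMI, where an even (Poisson) spread of the same UMIs would give 19.2%. In cluster 16 these values were 29.6% and 33.8%. Cxcl14 was alike, with 8.30% and 9.38% in cluster 0. Cxcl2 was uneven, with 29.4% and 46.8% in cluster 3 and 41.9% and 76.4% in cluster 10. In cluster 10 the tenth of cells with most Cxcl2 held 59.3% of its UMIs, and 1 cell reached 32 of 1000. In neutrophil-like cells the median was 7 Cxcl2 UMIs per 1000 and the highest cell had 89. Cxcl10 in cluster 7 (27.2% and 40.2%) and Cxcl1 in cluster 14 (18.5% and 33.9%) were uneven too. Cxcl12 in sham cluster 5 had a median of 2 UMIs per 1000, in 79.9% of cells against 95.1% for an even spread.

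The receptors that read these ligands were found on other cells than most of the sources. Cxcr2, the receptor of Cxcl1, Cxcl2 and Cxcl3, stood at 488 CPM [455 to 522] in neutrophil-like cells at 3 dpi, in 37.6% of cells, and at 0.476 CPM [0.218 to 0.904] in oligodendrocyte-like cells. So neutrophil-like cells held both the receptor and the highest level of Cxcl2. Cxcr1, its relative, was at 20.6 CPM [14.5 to 28.6] there. Cxcr3, read by Cxcl10, was at 62.4 CPM [28.6 to 118] in T/NK-like cells (9 UMIs in 8 of 77 cells) and 15.5 CPM in neutrophil-like cells. Cxcr6, the receptor of Cxcl16, was at 139 CPM [84.8 to 214] in T/NK-like cells (20 UMIs) and at 0 in neutrophil-like cells, cluster 0 and cluster 14. Cxcr5, which reads Cxcl13, was at 154 CPM [91 to 243] in B-like cells.

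Cxcr4, the signalling receptor of Cxcl12, was at 314 CPM [288 to 341] in neutrophil-like, 102 [52.9 to 179] in B-like, 62.0 in monocyte/macrophage-like and 52.9 in cluster 0 cells at 3 dpi. It was under 8 CPM in sham classes of at least 50 cells. The scavenger Ackr3 was at 17.5 CPM [14.5 to 20.9] at 3 dpi and 65.0 [58.6 to 72.0] in sham in endothelial-like cells (log2 ratio -1.45), and at 205 [179 to 235] in sham pericyte/smooth muscle-like cells. Ackr1, which binds inflammatory chemokines on venular endothelium, was at 178 CPM [168 to 189] at 3 dpi, in 26.8% of endothelial-like cells, and 0.35 [0.0423 to 1.26] in sham. Ccrl2, a non-signalling relative, was highest in neutrophil-like cells (1752 CPM [1690 to 1815]). In microglia-like cells it was lower, at 256 CPM [251 to 261] at 3 dpi and 668 CPM [651 to 685] in sham (log2 ratio -1.35). Ackr2 and Ackr4 stayed under 10 CPM in every class of at least 50 cells.

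Of the other CXC ligands, Pf4, a platelet and macrophage chemokine, had more UMIs at 3 dpi than any of the 7 members, with 164003 at 3 dpi and 818 in sham. It stood at 7946 CPM [7845 to 8048] at 3 dpi and 3415 [3169 to 3675] in sham in cluster 14, and at 5273 [5243 to 5303] in cluster 0. Microglia-like cells held 288 CPM of Pf4 at 3 dpi and 0.779 in sham, and oligodendrocyte-like cells 49.6 and 0.392. Cxcl5, a Cxcr2 ligand, was at 201 CPM [193 to 210] in fibroblast-like cells, in 17.5% of cells, and at 33.0 [29.8 to 36.6] in precursor-like cells at 3 dpi, with 0 UMIs in sham. Ppbp, a platelet chemokine, was at 86.6 CPM in cluster 14 and at 323 in cluster 25, there in 4.17% of 96 cells. Cxcl9, a Cxcr3 ligand like Cxcl10, had only 34 UMIs at 3 dpi and 2 in sham, and Cxcl13, Cxcl15 and Cxcl17 had 8, 1 and 12 at 3 dpi. No row was named Cxcl11.

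Genes around the pathway were counted in lists chosen with results of these data known, so a count here is a description. The median log2 ratio over all measured genes was -0.15 in microglia-like, -0.25 in endothelial-like, -0.26 in precursor-like and -0.02 in oligodendrocyte-like cells. In the same class order, calls of higher at 3 dpi took in 11.7%, 8.3%, 7.21% and 5.62% of all measured genes. Calls of lower took in 16.6%, 13.6%, 13.5% and 4.24%. These shares are the background for every list below, and counts of 0 or 1 in short lists cannot be told from them. NF-kB targets and feedback genes were 1 higher and 7 lower of 15 measured in microglia-like cells (median -0.96), where Icam1, an adhesion molecule, was at 123 CPM at 3 dpi and 771 in sham, and the inhibitor Nfkbia at 1095 and 3798. In endothelial-like cells 4 of 15 were higher and 0 lower (median 0.54), among them Icam1 (308 and 146 CPM) and Bcl3 (41.3 and 7.17 CPM). In precursor-like cells 2 of 10 and in oligodendrocyte-like cells 2 of 7 were higher and 0 lower (medians 0.26 and 0.22).

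Interferon-response genes, many of them induced together with Cxcl10, were not called higher in any of the 4 classes. In microglia-like cells only 3 of 19 genes were measured, and 1, the transcription factor Irf1, was lower, at 26.1 CPM at 3 dpi and 223 in sham, with a list median of -0.86. In endothelial-like cells 16 of 17 measured genes were lower and 0 higher (median -1.49), such as Ifit1 at 32 CPM at 3 dpi and 205 in sham and Irf7 at 28.5 and 167. In precursor-like cells 0 of 3 passed 2-fold (median -0.25), and in oligodendrocyte-like cells none was measured. Summed over the list, the level was 169 CPM at 3 dpi and 409 in sham in microglia-like cells, 451 and 1730 in endothelial-like cells, and 705 in neutrophil-like cells at 3 dpi.

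Inducers and their receptors were 0 higher and 5 lower of 14 in microglia-like cells (median -0.64), with the cytokines Tnf at 224 CPM at 3 dpi and 858 in sham and Il1a at 126 and 671. They were 3 higher and 1 lower of 10 in endothelial-like cells (0.60), 3 higher and 1 lower of 8 in precursor-like cells (0.60), and 2 higher and 0 lower of 5 in oligodendrocyte-like cells (0.24). The higher genes of these classes included Il1b, at 39.3, 33.4 and 25.7 CPM at 3 dpi in this order. How far free RNA made up these Il1b levels was not measured. Genes that regulate decay of inflammatory transcripts, not all in the same direction, were 0 higher in all 4 classes. They were lower for 3 of 7 in microglia-like, 1 of 6 in endothelial-like, 2 of 6 in precursor-like and 0 of 5 in oligodendrocyte-like cells (medians -0.80, -0.08, -0.79 and 0.10). Zfp36, which destabilises Cxcl1 and Tnf mRNA, was at 319 CPM at 3 dpi and 2981 in sham in microglia-like cells and at 306 and 882 in endothelial-like cells.

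Chemokine cleavage and shedding genes were 0 of 3 past 2-fold in microglia-like, 0 of 4 in precursor-like and 0 of 2 in oligodendrocyte-like cells (medians -0.23, 0.09 and -0.13). In endothelial-like cells 1 of 4 was higher and 1 lower (median -0.49). These were the protease Mmp14, at 82.2 CPM at 3 dpi and 1.05 in sham, and Dpp4, which trims Cxcl12 and Cxcl10, at 1.63 and 26.4. Adam10, the sheddase of Cxcl16, stayed within 2-fold in microglia-like cells, at 101 CPM at 3 dpi and 120 in sham. Receptors were 1 lower of 1 measured in microglia-like cells, 1 higher and 1 lower of 3 in endothelial-like, 1 lower of 1 in precursor-like cells, and none was measured in oligodendrocyte-like cells. Other CXC ligands were 1 higher of 1 in the microglia-like, endothelial-like and oligodendrocyte-like classes and 2 higher of 2 in precursor-like cells. The gene was Pf4 in each class, joined by Cxcl5 in precursor-like cells. At 3 dpi Pf4 was at 78.2 CPM in endothelial-like, 54.7 in precursor-like and 49.6 in oligodendrocyte-like cells, against 5273 in cluster 0. How far free RNA made up these low levels was not measured. The dissociation list was 13 lower of 16 in endothelial-like, 14 lower of 16 in precursor-like and 0 lower and 1 higher of 17 in oligodendrocyte-like cells (medians -1.46, -1.96 and -0.16).

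Genes with the most similar pattern were ranked by the correlation of log2(CPM + 10) over 21 class and library sums among 8159 genes. These are descriptions over sums that share libraries and depth. Cxcl2 was most like Il1b (r = 0.955), which encodes interleukin-1 beta, Tnfaip2 (0.952) and Mapkapk2 (0.926). Cxcl3 was most like Clec12a (0.976), Tarm1 (0.973) and Sirpb1c (0.960), all myeloid receptors, and Cxcl12 most like Palmd (0.978), Itm2a (0.976) and Tinagl1 (0.976). Cxcl16 was most like Ms4a6c (0.932), Tmem106a (0.925) and Grn (0.923). The nearest genes were less similar for Cxcl14 (Rap2b 0.900, Ftl1-ps1 0.878, Pgam1 0.862), Cxcl10 (Gcnt1 0.845, Nfe2l2 0.788, Ptgs2 0.782) and Cxcl1 (Itga5 0.825, Ptgs2 0.824, Anxa1 0.812). Among the members, Cxcl2 and Cxcl3 were the most alike (0.846), and Cxcl12 and Cxcl14 the least (-0.562).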

How the data were processed

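The authors deposited 1 table per library of raw UMI counts, not normalized, with genes in rows and barcodes in columns. The submitters' processing notes name Cell Ranger, Seurat and the human build GRCh38, without versions, although the symbols are those of mouse genes. Gene positions were not used, except RefSeq promoters of GRCm38.p6. Cells needed 200 genes and 500 UMIs (13584 at 3 dpi and 10126 in sham passed). Doublets were scored against 2 simulated doublets per cell, and the expected number (0.8% per 1000 cells) was removed: 1476 at 3 dpi (10.9%) and 820 in sham (8.10%).

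After scaling each cell to 10000 and taking logs, 2000 variable genes, without chemokines, receptors, list genes, ribosomal and sex-linked genes, gave 30 principal components, a graph of 15 neighbours and Leiden clusters at resolution 1.0. Clusters were named for the class whose markers stood highest, on average, above the median cluster; this needed 3 or more markers at 2-fold and detected in 10% of cells. A cluster stayed unnamed if a second class that also had 3 such markers lay within 1 log2 unit. It also stayed unnamed if its 10 leading genes held more markers of another class. Low depth left a cluster unnamed only where these leading genes held no marker of its own class. Parts of this rule were set after the data were seen, and classes come from rebuilt clusters.

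UMIs were summed per class and library. Intervals are exact Poisson for levels, exact conditional for folds and Clopper-Pearson for shares, at 95%. Folds against 0, and limits for a count of 0, use a floor of 3 counts. No count model was fitted, since each group was 1 library. The members and gene lists were chosen with earlier results of these data known. Genes named are the 7 members, all receptors and other CXC ligands, at most 4 genes of each other list with the largest ratio per class, and the 3 genes most correlated with each member; marker and leading genes are named to identify clusters. The ratio calls were run on simulated class sums that held Poisson counting error alone. With no spread between cells, mice or libraries, these sums cannot give the rate of false calls in these data. Alternatives, with the division of cluster 14, clusters 5 and 14 on their own and classes of 20 cells or more added after the data were seen, were another pseudocount, scaling, cell filter, cluster resolution, doublets kept, free RNA subtracted, cells of 1 sex, and a stricter minimum level. Software was leidenalg 0.10.2 with igraph 0.11.9 for clustering, scikit-learn 1.9.0 for neighbours, scipy 1.17.1 for intervals, pandas 2.3.3 and numpy 2.4.6 under Python 3.11.15, and matplotlib 3.10.9 for plots.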

Additional observations from a re-analysis of the deposited data

How the results depend on the processing

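No member's ratio called higher or lower changed sign under any alternative run. Median-of-ratios scaling moved the median of all genes by 0.16 in microglia-like, 0.26 in endothelial-like and 0.26 in precursor-like cells. With it the log2 ratios were 1.75 for Cxcl2, 1.51 for Cxcl10 and 1.09 for Cxcl16 in microglia-like cells, and 2.63 for Cxcl1 and -1.98 for Cxcl12 in endothelial-like cells, so Cxcl16 then passed 2-fold. At resolution 2.0 Cxcl2 was 1.72 and Cxcl10 1.57 in microglia-like cells. In female-derived cells the microglial values were 1.64 for Cxcl2, 1.69 for Cxcl10 and 2.31 for Cxcl14, and Cxcl1 was 2.87 in endothelial-like cells. In male-derived cells they were 1.22 for Cxcl10 and 1.01 for Cxcl16, and in endothelial-like cells 1.52 for Cxcl1 and -2.13 for Cxcl12. A pseudocount of 1 CPM gave 3.87 for Cxcl14 in microglia-like and 2.80 for Cxcl1 in endothelial-like cells. With doublets kept, endothelial Cxcl1 was 2.71 and Cxcl12 -1.95.

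Members called higher in oligodendrocyte-like cells were 0 with free RNA subtracted and 0 when measured at 50 CPM. In precursor-like cells 4 were higher and 1 lower with doublets kept, 1 higher in male-derived cells and 1 higher at 50 CPM. The main counts were 1 higher of 1 measured in oligodendrocyte-like and 2 higher of 3 in precursor-like cells. The shares over all genes in these settings are not given, so the counts only describe how the calls moved. Members 2-fold above their second class at 3 dpi were 4 at resolution 0.5 (against 16.8% of all measured genes there), 4 in male-derived (21.5%) and 1 in female-derived cells (21.5%). In sham they were 2 among classes of 20 cells or more (18.7%). Over all genes, those lower numbered 417, 1472 and 1734 in oligodendrocyte-like, endothelial-like and precursor-like cells with a pseudocount of 1 CPM, and 611 in endothelial-like and 639 in precursor-like cells with median-of-ratios scaling. At resolution 0.5 oligodendrocyte-like cells had 786 genes higher and 734 lower. The causes were not tested. With 1 library per group the spread between mice and libraries is unknown, and depth limits classes of few cells: a count of 0 in the 49 sham cells of cluster 14 allows up to 14.4 CPM by the limit of 3 counts.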
